A study of Mus musculus with 2 samples.

Results

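XY germ cells from mouse gonads treated for 72 h with an inhibitor of MEK1 and MEK2 were compared with XY germ cells from gonads kept for 72 h in the solvent DMSO. Members were the 4 libraries labelled 72 h with 500 nM PD0325901 (MEKi) and the 4 labelled 72 h with DMSO, 8 of the 40 germ cell libraries of the series. Gonads with the mesonephros attached were taken at E12.5 from Swiss females crossed with 129svJT2 males that carry an Oct4-eGFP reporter, and the genotype of all embryos was otherwise labelled wild type. After culture the mesonephros was removed, gonads of several embryos were pooled for each replicate, and GFP-positive germ cells were sorted. MEKi was added to whole gonads, so that somatic and germ cells were exposed to it alike. Other groups used below, of 4 libraries each, were XY germ cells after 72 h with BGJ398, an inhibitor of FGF receptors, at 500 nM (FGFRi), XY germ cells after 24 h in DMSO or 500 nM MEKi, XY germ cells at 0 h before culture and XX germ cells after 72 h in DMSO. They carried the same reporter and came from the same cross.

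The ERK pathway carries signals from receptors at the cell surface through RAS and RAF to the kinases MEK1 and MEK2, which activate the ERK kinases and, through them, transcription factors of the ETS family. In the foetal testis, male germ cells stop dividing, switch off pluripotency genes, and switch on the piRNA machinery and the enzymes of de novo DNA methylation that silence retrotransposons. In the foetal ovary, germ cells enter meiosis under the influence of retinoic acid and BMP.

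RNA was primed at the poly(A) tail, and per the authors' methods copies of a molecule were collapsed by a unique identifier before counting. The deposited file does not say whether its counts were collapsed. The methods and the authors' code also differ in the length of that identifier, so how closely a count equals a molecule is uncertain. Total counts were 1462982 to 2309884 in the DMSO libraries and 1940297 to 4784965 with MEKi, so the MEKi libraries were on the whole deeper, replicates 3 and 4 most of all. Values are CPM, counts scaled by library size, and the sizes were adjusted with TMM factors. They are not divided by transcript length, so levels are compared between libraries for a gene and not between genes. The 8 libraries share their sample indexes with libraries of the other sequencing pool, and the largest share of the partner library that could have entered was 0.209 to 7.02% for DMSO and 6.17 to 16.9% for MEKi. Each of these limits rests on the counts of 1 gene. The partners of the MEKi libraries were XY DMSO libraries of 24 h and those of the DMSO libraries XY libraries of 0 h. Germ cell markers were present in every library, with Ddx4 at 530.3 ± 33.8 CPM in DMSO and 391 ± 59.97 CPM with MEKi and Dazl at 897 ± 41.8 CPM in DMSO and 1254 ± 286 CPM with MEKi (SD, n = 4). Neither passed limma's test, and here and below a bare pair of values in parentheses is the log2 change and its FDR, for Ddx4 (-0.48, FDR 1.0) and for Dazl (0.40, FDR 1.0). That test was against a 1.5-fold change, so a gene that misses it is not shown to be unchanged. With no fold threshold Ddx4 was called lower and Dazl higher. The 63 markers of other gonadal and blood cell types took 0.0561 to 0.0678% of the counts in DMSO and 0.0390 to 0.0839% with MEKi. That difference did not pass an exact permutation test (p = 0.457, with 0.0286 the smallest value that this design can give). The Sertoli cell hormone gene Amh had 1 count in the 4 DMSO libraries together and 2 with MEKi. In sorted bulk RNA, fewer cells of a type and less RNA per cell cannot be told apart.

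With MEKi, 611 genes rose and 780 fell of 15252 tested (limma treat against a 1.5-fold change, FDR under 0.05). Called genes were 9.12% of those tested, 4.01% higher and 5.11% lower. The median size of the change was 1.43 on the log2 scale among the higher and 1.68 among the lower genes, and 128 and 257 of them changed over 4-fold. The MEKi and DMSO libraries did not overlap for 599 of the higher and 749 of the lower genes. Among all genes tested, they did not overlap for 18.9% in the higher and 19.4% in the lower direction. Without TMM scaling, 847 genes were higher and 590 lower, and the median change of all genes moved from 0.01 to 0.12. Removing both of the deepest MEKi libraries left 539 higher and 509 lower genes, and thinning all libraries to the lowest total left 489 and 601.

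**Figure D1:**
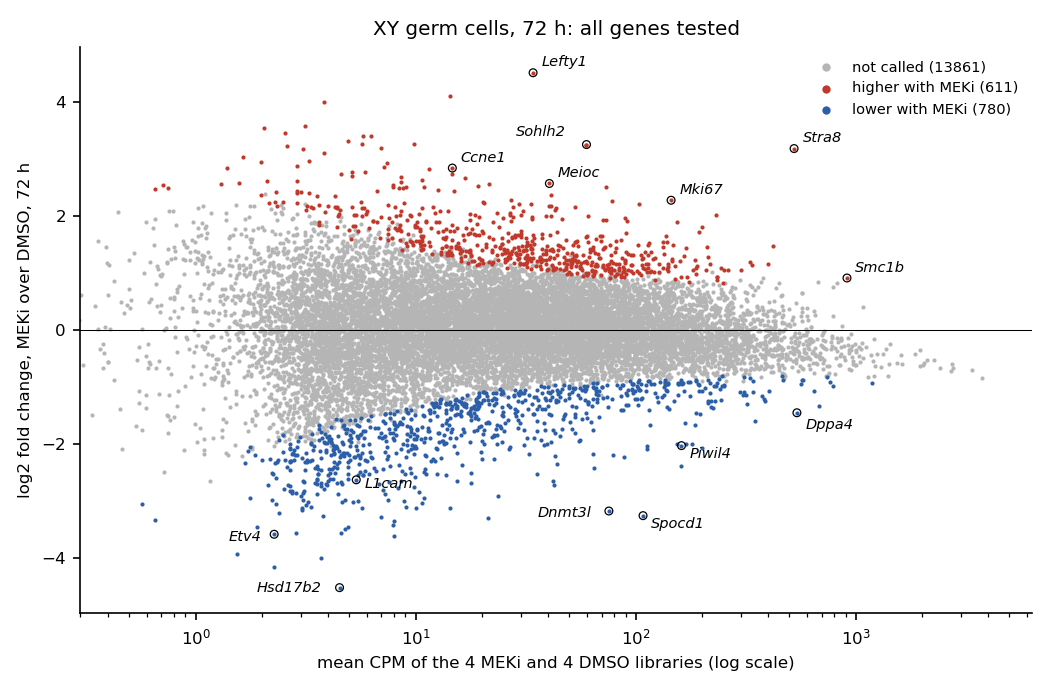
Log2 fold change of MEKi over DMSO after 72 h (y axis) against the mean CPM of the 8 libraries (x axis, log scale) for each gene tested, with 611 higher genes in red, 780 lower genes in blue, genes not called in grey and 14 genes circled and named. Called genes lie at all levels, and Lefty1 and Hsd17b2 are the named genes farthest from 0.

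Most genes of the nuclear piRNA pathway and of de novo DNA methylation fell. Of 11 tested, 8 fell, none of them rose, and the median log2 change was -1.21 against 0.01 over all genes. The nuclear pathway brings piRNA-guided PIWI proteins to nascent retrotransposon RNA, where DNA methylation is then laid down. Library values below are in the order of replicates 2, 4, 5 and 6 for DMSO and of replicates 2, 3, 4 and 5 for MEKi. Spocd1 (chr4:129822561-129850908, GRCm39), which links the PIWI protein MIWI2 to the methylation machinery, was at 181, 219, 218 and 168 CPM in DMSO and 14.9, 18.3, 22.6 and 22.7 CPM with MEKi (log2 change -3.26 ± 0.158 SE, limma FDR 2.06e-19). Piwil4 (chr9:14607526-14652036), which encodes MIWI2, was at 274, 265, 276 and 231 CPM in DMSO and 48.6, 57.8, 72.5 and 68.6 CPM with MEKi (log2 change -2.03 ± 0.123 SE, limma FDR 1.34e-13). Dnmt3l (chr10:77877781-77899456), the cofactor of the de novo methyltransferases, was at 135, 177, 131 and 108 CPM in DMSO and 8.93, 11.8, 22.4 and 10.6 CPM with MEKi (log2 change -3.17 ± 0.198 SE, limma FDR 4.39e-15). For all 3 genes every MEKi library lay below every DMSO library. The methyltransferase gene Dnmt3a also fell (-1.21, FDR 1.98e-07), whereas Dnmt3b, its close relative, was at 0.37 on the log2 scale with an FDR of 1.0. Morc1 (-1.63, FDR 2.18e-09), a gene needed for retrotransposon silencing, and Gtsf1 (-1.07, FDR 0.0133) and Mael (-1.07, FDR 4.00e-04), both piRNA pathway factors, fell too. The call of Gtsf1 was lost in 12 of 22 other settings, whereas Spocd1, Dnmt3l, Piwil4 and Morc1 were called in all of them. Gtsf1 was not called with DMSO replicate 2 or MEKi replicate 3 or 4 left out. Tex15 did not pass (-0.68, FDR 0.766).

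Genes that make piRNAs and build germ granules were called lower in part. Of 19 tested, 5 fell, none rose, and their median was -0.58. Tdrd9 (chr12:111937965-112035290), a Tudor domain helicase counted with the nuclear pathway above, was at 281, 348, 276 and 256 CPM in DMSO and 38.7, 64.3, 81.1 and 102 CPM with MEKi (log2 change -2.001 ± 0.154 SE, limma FDR 2.92e-10). Piwil1 (chr5:128779588-128832538), the PIWI gene best known from later spermatogenesis, was at 47.9, 57.3, 63.9 and 35.8 CPM in DMSO and 11.4, 12.9, 15.1 and 11.8 CPM with MEKi (log2 change -1.90 ± 0.191 SE, limma FDR 4.60e-07). Its values were low in all MEKi libraries and the groups did not overlap. Henmt1 (-1.85, FDR 1.74e-04), which methylates piRNA ends, fell, as did Tdrd1 (-1.25, FDR 7.79e-06), Tdrd5 (-0.96, FDR 0.00655) and the helicase gene Ddx25 (-1.22, FDR 1.35e-06). Tdrd5 was not called in 5 of 22 other settings, including thinning and scaling without factors. Piwil2, the piRNA-producing PIWI gene, did not pass (-0.71, FDR 0.516), and Tdrd12 (0.02, FDR 1.0) was close to 0.

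The promoters of Mael, Piwil1, Tdrd1 and Tdrd9 are printed because these genes fell and were picked for start regions that hold the E-box CACGTG, a sequence read by basic helix-loop-helix factors, some of which act in germ cells. Windows of 120 bases are from RefSeq on GRCm38.p6, 5′ to 3′ on the strand of the gene, with the E-box in capitals. Both strands were searched in 250 bases before to 50 after the start, which for this palindrome gives the same matches.
Mael (chr1:166238875-166238994, minus strand): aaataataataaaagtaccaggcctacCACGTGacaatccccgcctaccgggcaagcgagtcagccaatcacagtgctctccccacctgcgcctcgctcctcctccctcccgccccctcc
Piwil1 (chr5:128736046-128736165, plus strand): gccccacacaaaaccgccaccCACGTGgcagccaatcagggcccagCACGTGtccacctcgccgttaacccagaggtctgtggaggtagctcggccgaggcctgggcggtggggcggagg
Tdrd1 (chr19:56826089-56826208, plus strand): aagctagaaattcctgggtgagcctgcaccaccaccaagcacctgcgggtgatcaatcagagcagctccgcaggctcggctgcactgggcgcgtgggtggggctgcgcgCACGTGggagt
Tdrd9 (chr12:111971369-111971488, plus strand): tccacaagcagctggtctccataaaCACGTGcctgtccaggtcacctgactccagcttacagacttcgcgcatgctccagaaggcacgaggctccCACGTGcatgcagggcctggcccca
The E-box began 223 bases before the start in Mael, 179 and 154 in Piwil1, 11 in Tdrd1, and 165 and 95 in Tdrd9. It was present in 10.4% of the promoters of 10166 tested genes that could be matched. Of the nuclear piRNA list 8 of 13 genes had a promoter in the table and 2 of them held it, and of the piRNA biogenesis list 15 of 20 had one and 6 held it. Only 448 of the 611 higher and 546 of the 780 lower genes had a promoter in the table, so a comparison of motif shares over the called genes or over these lists is void. A match is a stretch of letters and not a site shown to be bound.

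Genes of male germ cell fate fell in part. Of 20 tested, 6 fell and 2 rose (median -0.51). Dppa4 (chr16:48104062-48114896), a chromatin factor of early germ cells and pluripotent cells, was at 711, 836, 887 and 741 CPM in DMSO and 303, 283, 292 and 274 CPM with MEKi (log2 change -1.45 ± 0.0986 SE, limma FDR 1.12e-09). Nanos2 (chr7:18721325-18722887), the RNA-binding repressor of meiosis, was at 27.8, 28.8, 26.6 and 25.9 CPM in DMSO and 6.95, 13.8, 12.9 and 8.23 CPM with MEKi (log2 change -1.25 ± 0.234 SE, limma FDR 0.0377). For both genes the MEKi libraries all lay below those of DMSO, but the call of Nanos2 did not hold in 13 of 22 other settings, including each one that left out a single DMSO library, or MEKi replicate 2 or 5. Dnd1 (-1.25, FDR 5.32e-05), the RNA-binding partner of Nanos proteins, Brdt (-1.47, FDR 2.63e-09), a bromodomain gene of the testis, and the RNA export factor Nxf2 (-1.33, FDR 1.28e-04) fell. The X-linked genes Taf7l (1.04, FDR 0.011), a TFIID subunit paralogue, and Rhox13 (2.01, FDR 1.45e-05), a homeobox gene, rose. Rhox10, the 1 called of 14 genes in a list of chromatin and transcription factors of spermatogonial arrest, fell (-1.73, FDR 1.07e-07). The 7.14% called in that list is below the 9.12% over all genes. Taf7l was not called with DMSO replicate 5 left out.

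Among 28 genes of DNA demethylation, maintenance methylation and chromatin repression, 3 rose and 2 fell (median 0.21). Uhrf1 (chr17:56610275-56630489), which guides maintenance methylation to newly copied DNA, was at 78.8, 68.5, 52.6 and 82.9 CPM in DMSO and 221, 171, 182 and 211 CPM with MEKi (log2 change 1.44 ± 0.134 SE, limma FDR 2.19e-06). All MEKi libraries were above all DMSO libraries. Dnmt1, the maintenance methyltransferase that UHRF1 recruits, did not pass (0.52, FDR 1.0), but it was called with no fold threshold. The pair of alternative Polycomb methyltransferase genes moved in opposite directions, as Ezh2 rose (1.08, FDR 3.59e-04) and Ezh1 fell (-0.95, FDR 0.00836). Wdr77 (1.08, FDR 0.00165), the partner of the arginine methyltransferase PRMT5, rose and the histone demethylase gene Kdm1b (-1.19, FDR 1.50e-04) fell. Ezh1 was not called with MEKi replicate 3 or 4 left out.

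**Figure D2:**
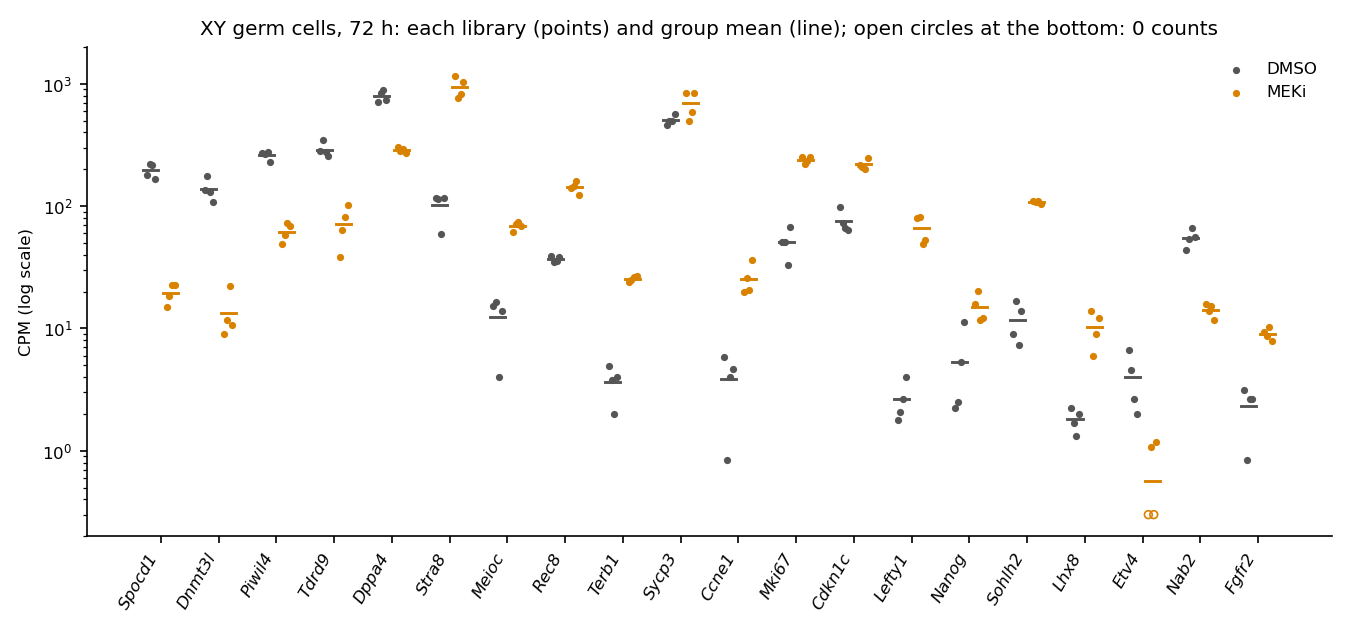
CPM (y axis, log scale) of 20 genes in each of the 4 DMSO (grey) and 4 MEKi (orange) libraries after 72 h, with points for libraries, lines for group means and open circles at the bottom for libraries with 0 counts. The groups overlap for Sycp3 and do not for Spocd1, Stra8, Lefty1 or Sohlh2.

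Genes of meiotic entry rose in part. Of 13 tested, 6 rose and none fell (median 1.16). Stra8 (chr6:34897098-34916279), the retinoic acid target that starts the meiotic programme, was at 117, 114, 59.2 and 117 CPM in DMSO and 1163, 769.9, 818 and 1043 CPM with MEKi (log2 change 3.18 ± 0.164 SE, limma FDR 2.34e-18). DMSO replicate 5 was the lowest of its group, and every MEKi library was above every DMSO library. Meioc (chr11:102554542-102573063), which holds cells in meiotic prophase, was at 15.2, 16.3, 3.99 and 13.9 CPM in DMSO and 61.5, 71.4, 73.5 and 68.6 CPM with MEKi (log2 change 2.56 ± 0.265 SE, limma FDR 8.31e-08). The meiotic cohesin gene Rec8 (chr14:55855455-55862852) was at 38.9, 34.7, 35.3 and 38.5 CPM in DMSO and 139.5, 145, 161 and 123 CPM with MEKi (log2 change 1.97 ± 0.164 SE, limma FDR 3.47e-09). Here too the groups did not overlap, and all 3 genes were called in each of 22 other settings. Prdm9 (2.14, FDR 3.23e-06), which marks recombination sites, H2ax (1.89, FDR 1.26e-11), the histone phosphorylated at DNA breaks, and the checkpoint kinase gene Chek1 (1.16, FDR 0.00678) rose. Meiosin, the partner of STRA8, did not pass, with 2.98 ± 1.31 CPM in DMSO and 9.20 ± 2.52 CPM with MEKi (log2 change 1.61 ± 0.429 SE, limma FDR 0.0937), and neither did Ythdc2, the partner of MEIOC (-0.04, FDR 1.0).

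The Stra8 promoter is printed as that of the entry gene with the largest change and a textbook target of retinoic acid. AGGTCA, the half-site read by retinoic acid receptors, is in capitals.
Stra8 (chr6:34920728-34920947, plus strand): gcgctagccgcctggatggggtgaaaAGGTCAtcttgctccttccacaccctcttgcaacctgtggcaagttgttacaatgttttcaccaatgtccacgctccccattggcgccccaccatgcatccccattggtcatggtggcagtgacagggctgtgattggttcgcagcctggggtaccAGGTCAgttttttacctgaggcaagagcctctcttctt
This window of 220 bases from RefSeq on GRCm38.p6 runs 5′ to 3′ along the gene, and the half-sites begin 194 and 38 bases before the start. On either strand, AGGTCA was found in 11.8% of the 10166 matched promoters.

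Of 21 genes of meiotic cohesins, chromosome axis and synaptonemal complex, 8 rose and none fell (median 0.82). Terb1 (chr8:105173351-105236545), which ties meiotic telomeres to the nuclear envelope, was at 4.92, 3.76, 1.997 and 3.98 CPM in DMSO and 23.8, 25.1, 26.4 and 27.0 CPM with MEKi (log2 change 2.74 ± 0.41 SE, limma FDR 7.02e-05). Its partner Terb2 (1.53, FDR 0.0162) and the cyclin-like activator Spdya (1.88, FDR 3.36e-04) also rose, as did the synaptonemal complex gene Syce2 (1.15, FDR 7.49e-04) and the axis gene Hormad2 (1.55, FDR 9.10e-04). Sycp3 (chr10:88295431-88309099), the main axis protein, was at 462, 493, 499.9 and 571 CPM in DMSO and 848, 499.7, 594 and 837 CPM with MEKi (log2 change 0.38 ± 0.12 SE, limma FDR 1.0). It was not called, and the 2 deepest MEKi libraries were lower than the others. Neither were Sycp1 (0.82, FDR 0.128), Sycp2 (0.24, FDR 1.0) and Hormad1 (0.06, FDR 1.0). The abundant cohesin gene Smc1b was called (0.91, FDR 0.042), but not in 10 of 22 other settings. Calls were lost for Terb2 with DMSO replicate 4 left out and for Smc1b with DMSO replicate 2, 4 or 5 or MEKi replicate 2 or 5 left out.

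Of 26 genes of meiotic breaks, strand exchange and crossovers, 4 rose and none fell (median 0.67). Dmc1 (chr15:79445691-79489351), the meiotic recombinase, was at 4.92, 6.69, 7.99 and 8.63 CPM in DMSO and 20.8, 21.8, 30.1 and 40.4 CPM with MEKi (log2 change 2.02 ± 0.33 SE, limma FDR 8.96e-04). Its MEKi libraries were all above those of DMSO. Meiob (1.73, FDR 4.86e-04), a single-stranded DNA binding factor, and Iho1 (1.54, FDR 0.0226), which promotes breaks, rose. Brca1, a repair gene, was called higher (0.99, FDR 0.0455), but not in 13 of 22 other settings. Spo11, whose protein makes the breaks, was at 5.44 ± 2.52 CPM in DMSO and 5.67 ± 1.27 CPM with MEKi (0.08, FDR 1.0), and the crossover gene Msh4 was near 0 (0.10, FDR 1.0). Calls were lost for Iho1 with DMSO replicate 2 or 5 left out and for Brca1 with DMSO replicate 2, 4 or 5 or MEKi replicate 2 or 3 left out.

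Cell cycle genes rose in part. Of 30 genes of DNA replication and S phase 12 rose, of 28 genes of G2 and mitosis 10 rose, of 20 genes of G1 cyclins and arrest 3 rose, and none of them fell. The medians were 0.818, 0.825 and 0.558, and the shares called were 40.0, 35.7 and 15.0%, against 9.12% over all genes. Ccne1 (chr7:37797404-37808264), the cyclin of entry into S phase, was at 5.82, 0.836, 3.99 and 4.64 CPM in DMSO and 19.9, 25.8, 20.6 and 36.0 CPM with MEKi (log2 change 2.83 ± 0.411 SE, limma FDR 3.51e-05). Rrm2 (chr12:24757811-24764145), the small subunit of ribonucleotide reductase, was at 12.98, 5.43, 13.98 and 9.29 CPM in DMSO and 62.0, 45.8, 42.2 and 45.5 CPM with MEKi (log2 change 2.21 ± 0.285 SE, limma FDR 1.84e-05). Mki67 (chr7:135291513-135318299), a marker of dividing cells, was at 50.6, 51.0, 33.3 and 67.0 CPM in DMSO and 252, 220.4, 235 and 251 CPM with MEKi (log2 change 2.27 ± 0.172 SE, limma FDR 4.57e-11). For each of these genes the lowest MEKi library was above the highest DMSO library. Ccne1 was at 2.21 on the log2 scale without DMSO replicate 4, and Rrm2 at 3.20 after subtracting the index partner's largest share. Other risers were Ccne2 (1.91, FDR 3.84e-07), Cdc6 (1.79, FDR 8.61e-04), the licensing inhibitor gene Gmnn (1.57, FDR 2.17e-06), the mitotic kinase gene Plk1 (2.01, FDR 1.10e-05), Cdk1 (1.62, FDR 3.04e-04) and Aurkb (1.61, FDR 0.00124). Top2a (0.84, FDR 0.0524) and Ccnb1 (0.74, FDR 0.579) did not pass, and Ube2c (1.07, FDR 0.0393) passed narrowly, its call being lost in 15 of 22 other settings. Ube2c was not called with DMSO replicate 2, 4 or 5 or MEKi replicate 2, 3 or 4 left out. Some of these genes also act in meiotic S phase, and the lists share members such as Cdk2.

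The 3 called genes of the G1 list were the inhibitors Cdkn1c and Cdkn2d and the cyclin gene Ccnd1, and no inhibitor was called lower. Cdkn1c (chr7:143012069-143014806), which encodes the arrest protein p57, was at 98.5, 72.7, 66.6 and 63.7 CPM in DMSO and 218, 209, 201 and 249.6 CPM with MEKi (log2 change 1.49 ± 0.13 SE, limma FDR 3.86e-07). All MEKi libraries were above those of DMSO. Cdkn2d, which encodes p19, also rose (1.59, FDR 2.47e-04), as did the G1 cyclin gene Ccnd1 (1.49, FDR 0.00878), while Cdkn1b, which encodes p27, did not pass (0.26, FDR 1.0). Histone genes, a family picked after its values were seen, were called higher in 17 of 46 and lower in none, with a median of 1.22. They took 0.375 to 0.408% of the counts in DMSO and 0.519 to 0.664% with MEKi, so the groups did not overlap. Ccnd1 was not called with DMSO replicate 4 left out.

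The Uhrf1 promoter is printed as that of an S phase regulated gene that rose and holds the E2F sequence TTCCCGCC, in capitals.
Uhrf1 (chr17:56303217-56303336, plus strand): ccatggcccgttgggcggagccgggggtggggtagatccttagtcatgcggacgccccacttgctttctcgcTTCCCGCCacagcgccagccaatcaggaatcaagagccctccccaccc
The 120 bases from RefSeq on GRCm38.p6 run 5′ to 3′ along the gene, and the match begins 48 bases before the start. Searched on either strand, TTCCCGCC was present in 4.46% of the 10166 matched promoters.

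**Figure D3:**
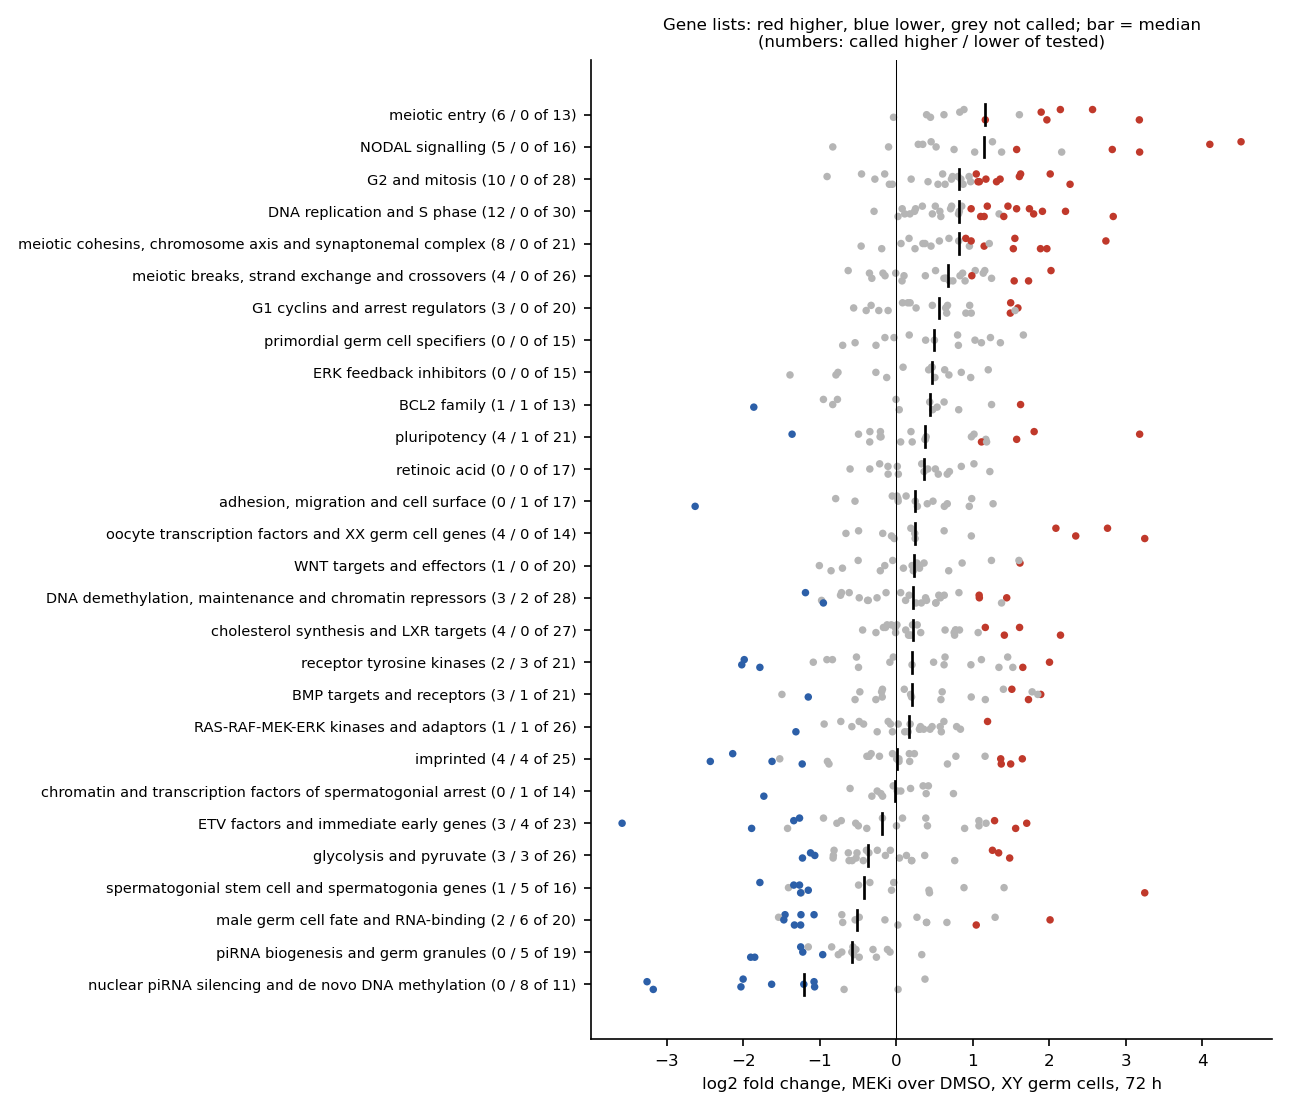
Log2 fold change of MEKi over DMSO after 72 h (x axis) for each tested gene of 28 lists (rows, ordered by their median, which is the black bar), with red for higher, blue for lower and grey for genes not called, and the counts beside each name. The nuclear piRNA list lies lowest, with 0 higher and 8 lower of 11, and the meiotic entry and NODAL lists lie highest.

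NODAL pathway genes were among those with the largest rise. Of 16 tested, 5 rose and none fell (median 1.14). NODAL is a TGF-beta ligand that acts early in male germ cells, and the LEFTY proteins are its targets and antagonists. Lefty1 (chr1:180762587-180765971) was at 1.79, 2.09, 2.66 and 3.98 CPM in DMSO and 79.9, 82.2, 48.6 and 52.5 CPM with MEKi (log2 change 4.50 ± 0.459 SE, limma FDR 2.43e-09). The MEKi libraries stood well above those of DMSO. Lefty2 (2.82, FDR 8.13e-05), the homeobox gene Otx2 (3.18, FDR 4.38e-05) and the ligand Gdf3 (1.57, FDR 0.0235) rose as well. Subtracting the index partner's largest share moved Lefty1 to 5.79 and Lefty2 to 4.97 on the log2 scale. Lefty2 itself set that share in DMSO replicates 4 and 5, so its counts there were removed in full by construction. The ligand Nodal itself did not pass, with 4 counts in the 4 DMSO and 51 in the 4 MEKi libraries (log2 change 2.16 ± 0.674 SE, limma FDR 0.103), and the co-receptor Cripto had 4 and 10 counts (0.52, FDR 1.0). Gdf3 was not called with DMSO replicate 2 or 6 or MEKi replicate 3 left out. In all, 10 of 22 other settings did not call it, including the subtraction of the index partner's largest share and thinning.

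Of 21 pluripotency genes, 4 rose and 1 fell (median 0.375). Nanog (chr6:122679780-122691601), a core pluripotency factor, was at 2.24, 2.51, 5.33 and 11.3 CPM in DMSO and 15.9, 20.4, 11.7 and 12.2 CPM with MEKi (log2 change 1.80 ± 0.386 SE, limma FDR 0.019). DMSO replicate 6 came close to the lowest MEKi library. Without DMSO replicate 2, DMSO replicate 4 or MEKi replicate 3, Nanog was not called, nor was it after subtracting the largest possible share of the index partner, in thinned libraries or without both of the deepest MEKi libraries. Klf5 rose (1.11, FDR 0.0218) and Utf1, a chromatin protein of pluripotent cells, fell (-1.36, FDR 2.51e-06). Pou5f1, the gene whose regulatory sequence drives the sorting reporter, did not pass (0.21, FDR 1.0), and Sox2 was not called (0.98, FDR 0.0947). Of 15 primordial germ cell specifiers limma called 0, with 2 at an unadjusted p under 0.05, and edgeR called 1 and DESeq2 0. Klf5 was not called with DMSO replicate 2 or 5 or MEKi replicate 2 left out.

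BMP targets and receptors gave 3 higher and 1 lower of 21 (median 0.20). Id1 (chr2:152566218-152579544), a direct target of BMP, was at 6.71, 3.76, 2.66 and 2.65 CPM in DMSO and 9.93, 14.2, 14.3 and 14.5 CPM with MEKi (log2 change 1.73 ± 0.396 SE, limma FDR 0.0346). The MEKi libraries were above those of DMSO, with replicate 2 the lowest of them, and the call was lost in 12 of 22 other settings. Id2 (1.89, FDR 0.0442) and the signal transducer Smad1 (1.51, FDR 0.00116) rose, and Id4, which marks spermatogonial stem cells, fell (-1.15, FDR 0.00243). Gata2 (1.85, FDR 0.0524), Msx1 (1.77, FDR 0.285) and Id3 (1.399, FDR 0.124) did not pass. Of 17 genes of retinoic acid synthesis, breakdown and response limma called 0, with 2 at an unadjusted p under 0.05 and a median of 0.36. Here edgeR called 1 and DESeq2 0. Calls were lost for Id1 with DMSO replicate 4, 5 or 6 or MEKi replicate 3 or 4 left out and for Id2 with DMSO replicate 2, 4 or 5 or MEKi replicate 3 or 4 left out.

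Of 14 oocyte transcription factors and genes of XX germ cells, 4 rose and none fell (median 0.24). Sohlh2 (chr3:55089265-55117382), a basic helix-loop-helix factor of oocytes and spermatogonia, was at 8.95, 16.7, 7.32 and 13.9 CPM in DMSO and 109.7, 109, 109 and 104 CPM with MEKi (log2 change 3.25 ± 0.219 SE, limma FDR 4.30e-14). The 4 MEKi libraries were close to each other and far above DMSO. Lhx8 (chr3:154011931-154036296), an oocyte homeobox gene, was at 2.24, 1.67, 1.33 and 1.99 CPM in DMSO and 13.9, 5.91, 8.92 and 12.2 CPM with MEKi (log2 change 2.09 ± 0.462 SE, limma FDR 0.0149). Irx3 (chr8:92525153-92528695) was at 1.79, 1.67, 0 and 1.99 CPM in DMSO and 11.4, 8.24, 10.9 and 5.09 CPM with MEKi (log2 change 2.76 ± 0.527 SE, limma FDR 0.00168). The groups did not overlap for these genes, but without both of the shallowest DMSO libraries, replicates 5 and 6, only 1 gene of the list was called, Lhx8, Irx3 and Irx5 being lost. Irx3 was at 2.15 on the log2 scale without DMSO replicate 5. Sohlh1, the partner of Sohlh2, did not pass (-0.49, FDR 1.0), nor did the oocyte factors Figla (-0.03, FDR 1.0) and Nobox (0.24, FDR 1.0). Lhx8 was not called with DMSO replicate 4 or 5 left out.

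Of 16 genes of spermatogonial stem cells and spermatogonia, 5 fell and 1 rose (median -0.42), and 0 of the 5 were called in the fit without a filter on low counts, where their log2 changes were still negative. Egr4, a zinc finger factor, fell (-1.34, FDR 4.11e-04), and so did Ret (-1.78, FDR 7.05e-04), the receptor for GDNF. Its co-receptor gene Gfra1 was at 4.67 ± 1.13 CPM in DMSO and 1.75 ± 0.25 CPM with MEKi (-1.41, FDR 0.266). The riser was Sohlh2, and the others were Nanos2, Id4 and Etv5.

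Among 23 genes of ETV factors and immediate early genes, which hold known targets of ERK, 4 fell and 3 rose (median -0.18), 30.4% called. Etv4 (chr11:101660568-101676197), an ETS factor induced by ERK, was at 6.71, 4.598, 2.66 and 1.99 CPM in DMSO and 0, 1.07, 0 and 1.18 CPM with MEKi (log2 change -3.58 ± 0.646 SE, limma FDR 4.02e-04). The DMSO libraries held 33 counts of it, MEKi replicates 3 and 5 held 9 and the other 2 MEKi libraries had 0. Etv5 (chr16:22200052-22259662) was at 21.0, 21.7, 19.97 and 24.6 CPM in DMSO and 11.4, 14.5, 6.34 and 8.62 CPM with MEKi (log2 change -1.26 ± 0.24 SE, limma FDR 0.0385). MEKi and DMSO did not overlap for it, but the call was lost in 13 of 22 other settings, also without MEKi replicate 4 or 5 and without DMSO replicate 2, 4 or 6. Over all 22 settings the log2 change of Etv5 ran from -5.50 to -0.90. The -5.50 came from subtracting the index partner's largest share. Etv5 itself set that share in MEKi replicate 4, so its counts there were removed in full by construction. Etv4 was at -2.42 on the log2 scale without MEKi replicate 4 and -2.39 in thinned libraries. Its call was lost with both of the deepest MEKi libraries left out, where it was at -2.73. The ETS gene Etv1 was at 2.67 ± 1.44 CPM in DMSO and 1.07 ± 1.31 CPM with MEKi (-1.42, FDR 0.539), and it was called lower after subtracting the index partner's largest share and without both of the deepest MEKi libraries, with log2 changes from -3.71 to -0.78 over the settings. Nab2 (chr10:127496786-127504458), a corepressor of EGR factors, was at 43.4, 53.9, 66.6 and 55.7 CPM in DMSO and 15.9, 13.8, 15.3 and 11.8 CPM with MEKi (log2 change -1.89 ± 0.181 SE, limma FDR 1.79e-07). It was among the genes called in every setting. Ier2 (1.70, FDR 8.26e-04), Mycn (1.28, FDR 0.00507) and Mycl (1.56, FDR 0.0143) rose. Of 15 feedback inhibitors of ERK, such as the Sprouty and dual specificity phosphatase genes, limma called 0, with 2 at an unadjusted p under 0.05, edgeR 1 and DESeq2 0, and the median was 0.46. Dusp6 was at 7.38 ± 2.73 CPM in DMSO and 4.51 ± 2.44 CPM with MEKi (-0.79, FDR 0.994) and Dusp7 at 6.45 ± 0.578 CPM in DMSO and 15.3 ± 2.94 CPM with MEKi (1.20, FDR 0.161). Spry4 had 5 counts in DMSO and 4 with MEKi. Mycl was not called with DMSO replicate 2 or 4 left out.

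Of 21 receptor tyrosine kinase genes, 2 rose and 3 fell (median 0.21, and -0.03 with DESeq2), 23.8% called. Fgfr2 (chr7:129763471-132725079), a receptor for FGF, was at 3.13, 0.836, 2.66 and 2.65 CPM in DMSO and 9.43, 8.595, 10.3 and 7.84 CPM with MEKi (log2 change 2.002 ± 0.457 SE, limma FDR 0.0213). The MEKi libraries were all above DMSO, and the call was lost in 7 of 22 other settings, also without MEKi replicate 4 and without DMSO replicate 4. Fgfr1 (-0.49, FDR 1.0) and Fgfr3 (0.64, FDR 1.0) did not pass. Tyro3 (1.65, FDR 2.87e-04) rose, and besides Ret the growth factor receptor genes Pdgfrb (-2.02, FDR 0.00103) and Egfr (-1.99, FDR 0.0159) fell. Without MEKi replicate 4, Pdgfrb was at -2.66. It is also known from perivascular and mesenchymal cells, of whose 9 interstitial markers 0 were called by limma and 1 was above 0 (median -0.52). The part of such cells in its value was not tested. Kit, the receptor for stem cell factor, was at 25.9 ± 6.07 CPM in DMSO and 56.3 ± 9.02 CPM with MEKi (1.11, FDR 0.0673). Of 26 kinases and adaptors from RAS to ERK, 1 rose and 1 fell (median 0.17), and this 7.69% is near the 9.12% called over all genes. Mapk3 (chr7:126358723-126364991), which encodes ERK1, was at 115, 153, 143 and 112 CPM in DMSO and 49.1, 46.2, 62.0 and 42.7 CPM with MEKi (log2 change -1.31 ± 0.13 SE, limma FDR 2.46e-05). All MEKi libraries were below those of DMSO. Map2k1, which encodes the inhibited kinase MEK1, was called higher (1.19, FDR 0.0379) with the call lost in 15 of 22 other settings, and Map2k2, which encodes MEK2, was not called (0.36, FDR 1.0). Calls were lost for Egfr with DMSO replicate 2 or MEKi replicate 4 left out and for Map2k1 with DMSO replicate 2, 4 or 5 or MEKi replicate 3 or 4 left out.

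Of 13 BCL2 family genes, 1 rose and 1 fell (median 0.44), 15.4% called against 9.12% over all genes. Pmaip1, which encodes the death-promoting protein NOXA, was at 12.53, 14.2, 14.7 and 24.6 CPM in DMSO and 3.47, 3.22, 5.55 and 3.13 CPM with MEKi (log2 change -1.86 ± 0.29 SE, limma FDR 7.98e-04). After subtracting the largest share of the index partner its log2 change was -4.89. MEKi replicate 4 was the highest of its group and still below DMSO. Bik, another death-promoting member, rose (1.62, FDR 0.014), with its call lost in 7 of 22 other settings, and Bcl2 (0.04, FDR 1.0) and Bcl2l11 (1.24, FDR 0.0631) did not pass. Bik was not called with DMSO replicate 2 or MEKi replicate 4 left out.

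Of 26 genes of glycolysis and pyruvate handling, 3 rose and 3 fell (median -0.37). The hexokinase gene Hk2 (1.48, FDR 1.60e-05), the lactate dehydrogenase gene Ldhb (1.26, FDR 0.0016) and the lactate transporter gene Slc16a1 (1.34, FDR 5.45e-04) rose. The glucose transporter gene Slc2a3 (-1.06, FDR 0.00452), the aldolase gene Aldoc (-1.12, FDR 0.0308) and Pdk1 (-1.23, FDR 0.00274), whose protein restrains pyruvate entry into mitochondria, fell. Of 27 genes of cholesterol synthesis and its regulation, 4 rose and none fell (median 0.21), among them Cyp51 (1.41, FDR 1.06e-04), Ebp (2.15, FDR 0.0271) and Lss (1.16, FDR 0.0278), which encode synthesis enzymes. Of 20 WNT genes 1 rose, the R-spondin receptor Lgr4 (1.62, FDR 0.00369), a share of 5.0%, below the 9.12% over all genes. Calls were lost for Aldoc with DMSO replicate 2 or 4 or MEKi replicate 3 or 4 left out, for Ebp with DMSO replicate 4 or 6 left out and for Lss with DMSO replicate 2, 4 or 5 or MEKi replicate 4 left out. Without DMSO replicate 6 the log2 change of Ebp was 1.51.

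Of 25 imprinted genes, 4 rose and 4 fell, and the median was 0.01. Sgce (chr6:4672057-4747207) was at 8.95, 10.9, 13.3 and 9.29 CPM in DMSO and 0.993, 4.66, 0.991 and 2.74 CPM with MEKi (log2 change -2.43 ± 0.383 SE, limma FDR 2.51e-04). The MEKi libraries were below those of DMSO. Its neighbour Peg10 (-1.62, FDR 0.0145), the noncoding RNA Meg3 (-1.23, FDR 0.00723) and Phlda2 (-2.14, FDR 0.0469) fell. Kcnq1ot1, the noncoding RNA of the domain that holds Cdkn1c and Phlda2, rose (1.65, FDR 9.31e-07), as did Gnas (1.37, FDR 6.60e-04) and Snrpn (1.36, FDR 0.0413). The calls of Phlda2 and Snrpn were lost in 11 of 21 and 13 of 22 other settings. Of 17 adhesion and cell surface genes 1 was called, 5.88% against 9.12% over all genes. This was L1cam, which fell from 9.18 ± 2.15 to 1.57 ± 1.16 CPM (log2 change -2.63 ± 0.437 SE, limma FDR 3.62e-04). Calls were lost for Peg10 with DMSO replicate 2 left out, for Phlda2 with DMSO replicate 2 or 4 or MEKi replicate 2, 3 or 5 left out and for Snrpn with DMSO replicate 2 or 4 or MEKi replicate 2 or 3 left out. Phlda2 was at -2.76 without MEKi replicate 4.

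Several genes outside these lists had large changes. Hsd17b2, a steroid dehydrogenase gene with 71 counts in the 4 DMSO libraries and 5 with MEKi, was the gene with the largest fall (log2 change -4.52 ± 0.609 SE, limma FDR 1.82e-06). The potassium channel gene Kcnn4, with 58 and 6 counts, fell (-3.998, FDR 1.49e-05). Igsf21 (-3.30, FDR 3.32e-11) and Tsx (-3.34, FDR 1.01e-06) were also far lower with MEKi. Among risers were the oxidase gene Pipox (3.31, FDR 2.12e-04), the DMRT family gene Dmrta2 (3.39, FDR 6.29e-05), Ambp (3.25, FDR 1.49e-06), and Ankle1, a nuclease gene with 4 counts in DMSO and 111 with MEKi (3.99, FDR 7.69e-05). Single libraries moved these values, as Hsd17b2 was at -3.90 without MEKi replicate 3 and -5.12 without MEKi replicate 4, and Kcnn4 at -4.77 without the latter. Pipox was at 3.96 without DMSO replicate 2 and 2.59 without DMSO replicate 4, and Ankle1 at 4.84 without DMSO replicate 6. Among abundant genes, the ferritin gene Ftl1 fell from 1048 ± 95.3 to 533 ± 42.2 CPM (log2 change -0.98 ± 0.0895 SE, limma FDR 7.48e-04).

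Of 9 Sertoli cell markers tested 1 was called, and this 11.1% is near the 9.12% over all genes. It was Aard (chr15:51903503-51909204), at 3.58, 3.76, 1.997 and 7.96 CPM in DMSO and 14.9, 36.2, 23.0 and 10.2 CPM with MEKi (log2 change 2.44 ± 0.489 SE, limma FDR 0.00401). Every MEKi library was above every DMSO library, whereas Sox9, the defining Sertoli gene, was at 10.6 ± 4.08 CPM in DMSO and 16.3 ± 6.35 CPM with MEKi (0.61, FDR 1.0). The summed Sertoli share was 0.00982 to 0.0115% of counts in DMSO and 0.00665 to 0.0258% with MEKi, highest in the 2 deepest libraries. Of 3 endothelial markers tested 2 fell, Flt1 (-1.46, FDR 1.69e-04) and Cdh5, which was at 12.1, 7.52, 8.65 and 10.6 CPM in DMSO and 0, 0.716, 3.77 and 2.74 CPM with MEKi (log2 change -2.54 ± 0.452 SE, limma FDR 9.41e-04). Without MEKi replicate 4 the log2 change of Cdh5 was -3.45. The third, Pecam1, was not called (1.26, FDR 0.221), and its MEKi libraries were all above those of DMSO. The summed endothelial share was lower with MEKi, at 0.00227 to 0.00445% against 0.00480 to 0.00494% (exact permutation p = 0.0286, and 0.143 adjusted over 10 marker lists). The red cell gene Alas2 (-2.88, FDR 0.00172), the mesonephric gene Pax8 (-1.78, FDR 6.10e-04) and the heat shock gene Hspa1b (-1.397, FDR 0.04) fell as the 1 called gene among 7, 3 and 9 tested. These were 14.3, 33.3 and 11.1% of the genes tested in those lists, against 9.12% over all genes. All 7 red cell genes tested were lower on the log2 scale, with a median of -1.30, and their summed share was 0.00150 to 0.00426% with MEKi and 0.00410 to 0.00902% in DMSO (exact permutation p = 0.0571, and 0.191 adjusted over 10 marker lists). The other mesonephric genes tested were not called. Lhx1 was higher in all MEKi libraries (1.41, FDR 0.0554) and Emx2 lower in all of them (-2.02, FDR 0.0663). The summed mesonephric share was 0.00281 to 0.00372% with MEKi and 0.00276 to 0.00364% in DMSO (exact permutation p = 0.743). The summed share of 10 stress and dissociation genes was 0.190 to 0.250% with MEKi and 0.263 to 0.284% in DMSO, with no overlap (exact permutation p = 0.0286, and 0.143 adjusted over 10 marker lists), and Hsp90aa1 held 83.3% of it. None of 4 foetal Leydig, 6 pre-granulosa and 9 interstitial markers was called by limma, with 0, 0 and 1 of them at an unadjusted p under 0.05, and edgeR and DESeq2 also called 0. No macrophage marker of 8 had counts enough to be tested. The part of these cells in the germ cell results was not tested. Hspa1b was not called with DMSO replicate 4, 5 or 6 or MEKi replicate 2, 3 or 4 left out. With both of the deepest MEKi libraries left out, Aard, Alas2, Pax8 and Hspa1b were not called, and Pax8 was also not called in thinned libraries.

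Levels at the start of culture and in XX germ cells put the changes in context, without a test. The 0 h libraries were in the other pool, and the effects of pool and of time cannot be told apart in these values. Of the 611 higher genes, 320 had a MEKi mean between the DMSO mean at 72 h and the mean at 0 h, and 291 were above both. Of the 780 lower genes, 560 lay between and 220 below both. The median level of the higher genes was 16.4 CPM in DMSO, 44.9 with MEKi, 43.6 at 0 h and 47.7 in XX germ cells at 72 h. For the lower genes these medians were 22.6, 7.90, 3.55 and 2.97 CPM. Single genes differed in where MEKi left them. Lefty1 stayed below its 0 h level of 157 ± 10.2 CPM and was at 0.597 ± 0.443 CPM in XX germ cells. Nanog, at 15.03 ± 4.05 CPM with MEKi, was also far below 0 h (73.3 ± 2.57 CPM). Several meiotic genes were far below their XX levels with MEKi, as Meioc was at 365 ± 30.9, Terb1 at 319 ± 16.9, Dmc1 at 209.8 ± 28.8 and Sycp3 at 1890.0 ± 233 CPM there, whereas Rec8 was at 142 ± 15.7 CPM with MEKi and 70.8 ± 25.6 in XX germ cells. Piwil4 was at 10.4 ± 3.56 CPM at 0 h and 61.9 ± 10.8 CPM with MEKi, and in XX germ cells it was at 1.68 ± 1.19 CPM.

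**Figure D4:**
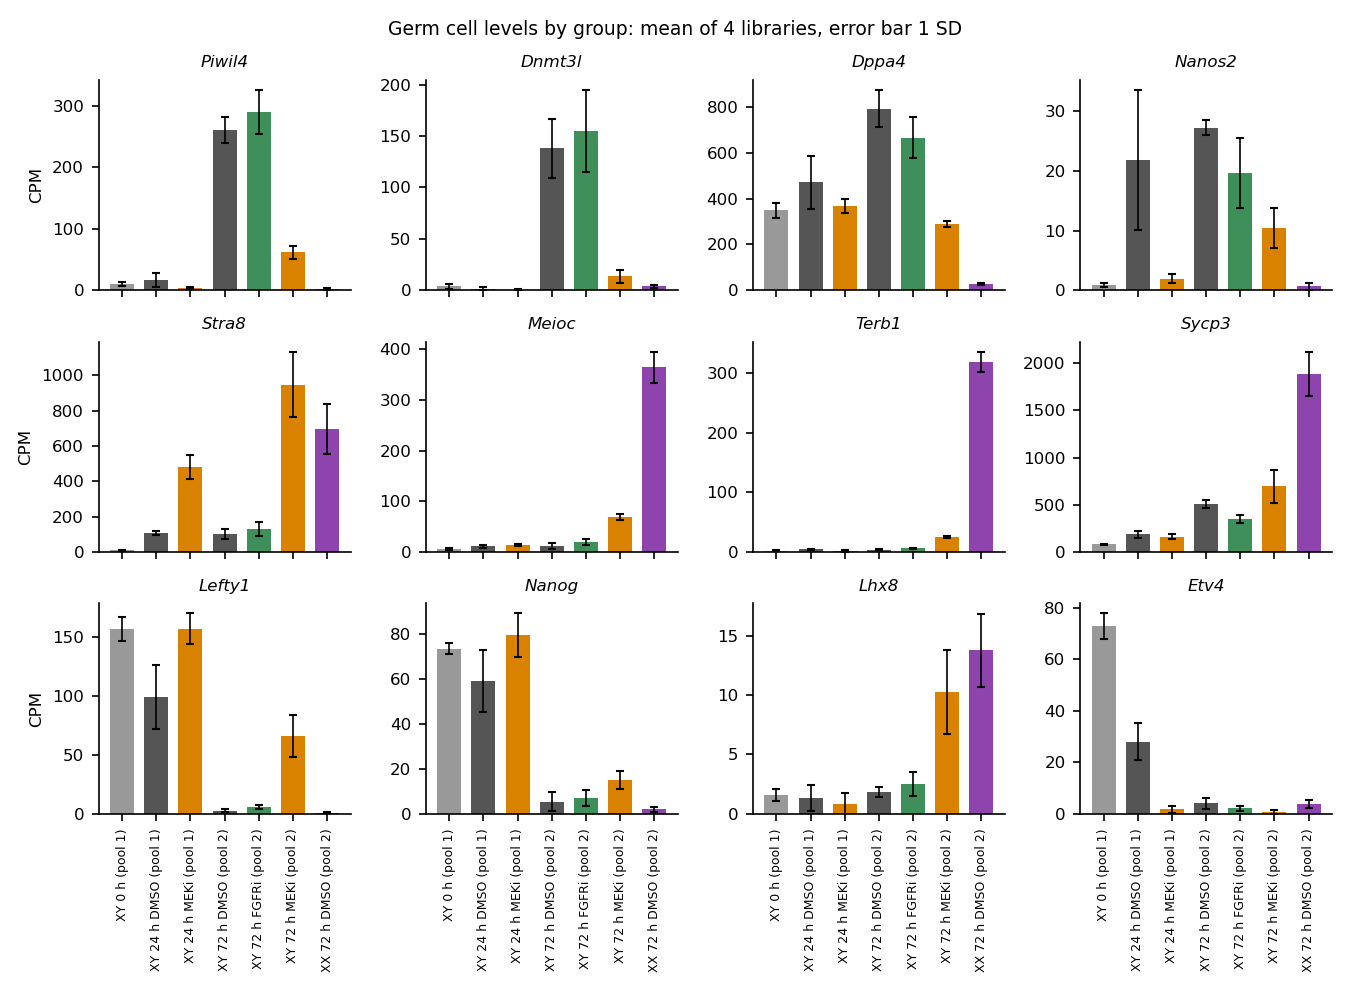
CPM (y axis from 0, own scale for each gene) of 12 genes in 7 groups of germ cells (x axis, with the pool), bars for the mean of 4 libraries and error bars for 1 SD. With MEKi at 72 h, Piwil4, Dnmt3l and Dppa4 are below DMSO, and Meioc and Terb1 are above DMSO but far below XX germ cells.

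FGFRi at 72 h was compared directly with MEKi, to ask which genes differ between the inhibitors. Which target a change needs was not tested. With MEKi 871 genes were higher than with FGFRi (5.71% of those tested) and 1065 lower (6.98%). FGFRi against DMSO called 1 gene (0.00656%), the cholesterol exporter gene Abca1, which was at 129 ± 19.2 CPM with FGFRi and 49.5 ± 4.50 with MEKi (log2 change -1.39 ± 0.11 SE, limma FDR 5.61e-08). Spocd1, at 170.0 ± 30.9 CPM with FGFRi, was lower with MEKi (log2 change -2.99 ± 0.157 SE, limma FDR 9.05e-18), as were Piwil4 (-2.14, FDR 3.55e-15) and Dnmt3l (-3.30, FDR 1.88e-16). Stra8, at 131 ± 40.4 CPM with FGFRi, was higher with MEKi (log2 change 2.82 ± 0.149 SE, limma FDR 1.45e-17), and so were Meioc (1.78, FDR 3.11e-07) and Mki67 (2.53, FDR 1.61e-14). Some genes called against DMSO were not called against FGFRi. Etv5 was at 11.4 ± 3.83 CPM with FGFRi and 10.2 ± 3.53 with MEKi (log2 change -0.20 ± 0.246 SE, limma FDR 1.0). Pdk1 was at 31.7 ± 5.70 and 27.7 ± 7.44 CPM (log2 change -0.12 ± 0.17 SE, limma FDR 1.0). Fgfr2 was at 6.04 ± 1.67 and 9.04 ± 1.06 CPM (log2 change 0.51 ± 0.283 SE, limma FDR 1.0). None of these 3 was called in FGFRi against DMSO, where their log2 changes were -1.07, -1.11 and 1.49. Nanos2 (-0.82, FDR 0.592), Ret (-0.96, FDR 0.394), Nanog (1.04, FDR 0.263) and Ebp (0.92, FDR 0.61) were not called between the inhibitors either.

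The 72 h effect of MEKi was set against its effect at 24 h, using separate DMSO libraries at each time and the difference of the differences as the test. At 24 h, 25 genes were called (0.164%). The effect was more positive at 72 h for 185 genes (1.21% of those tested) and more negative for 103 (0.675%). The count of 288 was 184 without the 24 h DMSO replicate 5. Lefty1 had a log2 change of 0.64 at 24 h and 4.50 at 72 h, a difference of 3.86 with an FDR of 9.43e-06 by limma. Otx2 and Sohlh2 likewise had more positive effects at 72 h, with differences of 3.59 and 2.77. Lefty1 was at 99.2 CPM at 24 h and 2.63 CPM at 72 h in DMSO, and at 157 and 65.8 CPM with MEKi. Otx2 was at 37.4 and 1.31 CPM in DMSO and 28.6 and 12.6 CPM with MEKi. Sohlh2 was at 94.0 and 11.7 CPM in DMSO and 133 and 108 CPM with MEKi. Levels of these genes were thus lower at 72 h in both treatments, more so in DMSO, though pool and time cannot be told apart. In the cell cycle, Mki67 had 0.38 at 24 h and 2.27 at 72 h, a difference that was called (log2 change 1.89 ± 0.218 SE, limma FDR 8.88e-05). Ccne1 (2.32, FDR 0.0191), Rrm2 (1.81, FDR 0.0174) and Uhrf1 (1.55, FDR 8.34e-04) gave differences in the same direction. Among meiotic genes, Stra8 had already changed by 2.19 at 24 h, and its difference was not called (log2 change 0.99 ± 0.239 SE, limma FDR 0.508). Meioc (2.18, FDR 0.0181), Prdm9 (2.82, FDR 0.0231) and Terb1 (4.202, FDR 0.00215) had more positive effects at 72 h. Their 24 h changes were 0.38, -0.68 and -1.46, so that for Prdm9 and Terb1 the sign of the estimate differed between the times. For Terb1 the 24 h change was not called (± 0.647 SE), at 4.05 ± 1.58 CPM in DMSO and 1.85 ± 1.98 CPM with MEKi. A reversal of its effect is therefore not shown.

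Among lower genes, Dppa4 (-1.16, FDR 0.0131), Dnd1 (-1.21, FDR 0.0383), Brdt (-1.29, FDR 0.00586) and Dnmt3a (-1.48, FDR 2.58e-05) had a more negative effect at 72 h. Nanos2 had -3.20 at 24 h and -1.25 at 72 h, Etv4 had -3.96 and -3.58, and Pmaip1 had -3.03 and -1.86. For these 3 genes limma called no difference between the times, with FDR of 0.194, 1.0 and 0.5984. Spocd1 had 0 counts in all 24 h MEKi libraries, and Spocd1, Piwil4 and Dnmt3l were low in 24 h DMSO, at 3.31 ± 4.76, 16.4 ± 11.4 and 1.51 ± 1.54 CPM. Sohlh1 was lower with MEKi at 24 h (log2 change -4.06 ± 0.729 SE, limma FDR 0.0058) and not called at 72 h, and here the difference was called (3.57, FDR 0.0107). Lgals3 was at 3.90 at 24 h and, not called, at -2.05 at 72 h (-2.05, FDR 0.0634), and its difference was called (log2 change -5.96 ± 0.883 SE, limma FDR 6.59e-05). Its highest group mean among these was 5.63 ± 1.88 CPM, with MEKi at 24 h.

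**Figure D5:**
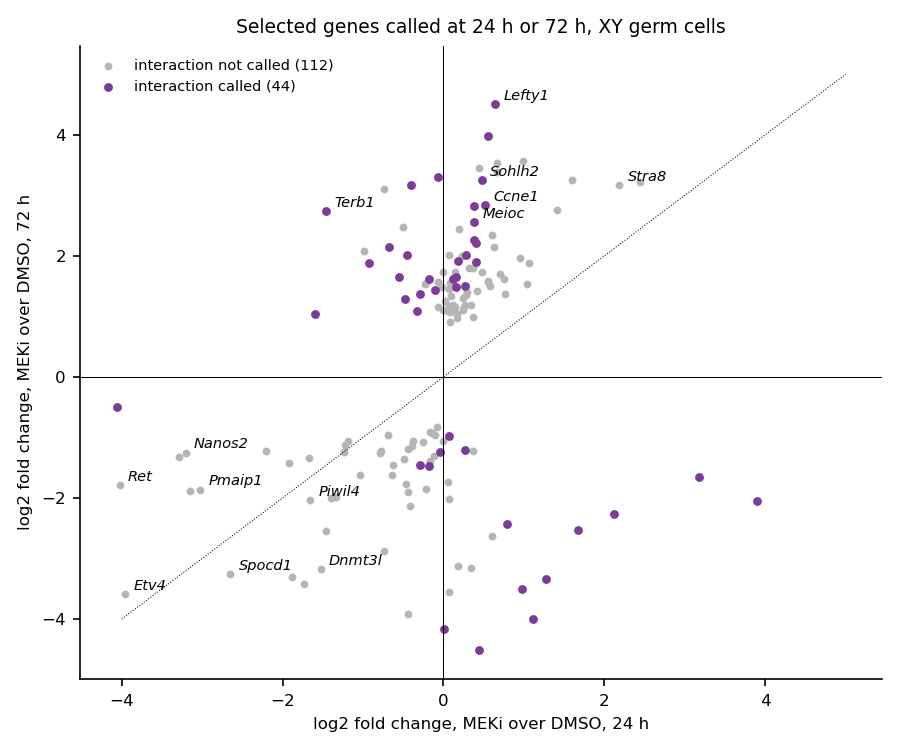
Log2 fold change of MEKi over DMSO at 24 h (x axis) and 72 h (y axis) for the 156 selected genes called at either time, not all of them named in the text, in purple for the 44 whose effects differed between the times by limma and in grey for the other 112, with a dotted line of equal effects. Lefty1, Terb1 and Ccne1 lie above the line, at 0.64, -1.46 and 0.52 at 24 h, and Stra8 lies high at both times.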

How the data were processed

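Sorted germ cell RNA was measured in 40 libraries, grouped by their labels into 10 groups of 4, of which the 8 libraries of XY germ cells after 72 h in MEKi or DMSO are described here. The values deposited by the authors are raw counts for each gene and library. Per the authors' methods, poly(A)-primed reads carried a sample index and a unique molecular identifier. They were split by index in scPipe, aligned with Rsubread to GRCm39, assigned to exons and collapsed by identifier. Tool versions and the annotation release are not given in the sources used here. The code collapsed each sequencing lane by itself and added the lanes, so a molecule read in both can count more than once. It also made a table without collapsing, which its tests did not use, and the deposited file does not name which of the tables it is. Priming at the 3′ end makes counts largely independent of length. Of 42422 genes, 40391 were matched by Ensembl ID to GENCODE M39, which gave symbols and coordinates, and the other 2031 held 1.05% of the counts. Replicates were not identical libraries by a chi-square test of their counts, and nothing states how far they are independent beyond separate pools of gonads.

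Genes were kept with filterByExpr of edgeR 4.0.16 (minimum count 10, minimum total 15), which left 15252. The fit followed the methods of the study, with TMM, voomWithQualityWeights in limma 3.58.1, 1 mean per group over all 40 libraries (30 residual degrees of freedom) and treat against a 1.5-fold change, with Benjamini-Hochberg FDR under 0.05 over all genes. SE are those of the fit, ± elsewhere is the SD of 4 libraries, and the fit drops no sample. A setting means an alternative fit, such as edgeR glmTreat, DESeq2 1.42.0, other scaling, no filter, a library left out or thinning. Two-sided exact permutation tests over 70 regroupings of libraries were used for shares of counts. Intervals and floors of counts cover counting error only. On simulated counts for 15032 genes, limma called 77 of 100 genes changed 4-fold, 15 of 100 changed 2-fold and none of the unchanged.

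The members and gene lists were chosen with earlier results of these data known. The text names the called members of the lists, members with a known role in each list, the genes with the largest change among those whose groups do not overlap, the called genes with the highest mean CPM, and genes whose effect differed between times, and some genes that this takes in are not reported here. Promoters were taken from RefSeq tables on GRCm38.p6, which is not the build of the counts, and are matched by symbol. Somatic cell libraries were not analysed here. The analysis used R 4.3.3 and Python 3.11.15.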

Additional observations from a re-analysis of the deposited data

Results flagged for a closer look

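In groups of 4 libraries, 1 library stood apart from the other 3 by Dixon's 95% criterion in 5 of 78 groups of values examined, and chance alone gives about 1 in 20. Stra8 was at 59.2 CPM in DMSO replicate 5, against 114 to 117 CPM in the other DMSO libraries. Id1 was at 9.93 CPM in MEKi replicate 2, Sohlh2 at 103.8 CPM in MEKi replicate 5 and Pmaip1 at 5.55 CPM in MEKi replicate 4. Irx3 had 0 CPM in DMSO replicate 5. None of these values lay within the range of the other group.

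For 11 of the genes whose library values are given, limma called a difference between the MEKi effects at 72 h and 24 h. On the log2 scale the 72 h effect less the 24 h effect was 4.2 for Terb1, 3.86 for Lefty1 and 2.77 for Sohlh2. It was 2.32 for Ccne1, 2.18 for Meioc, 1.89 for Mki67, 1.81 for Rrm2, 1.55 for Uhrf1 and 1.23 for Cdkn1c. It was negative for Dppa4, at -1.16, and for Sgce, at -3.22. Libraries of the 2 times were in separate pools, and a shift that is the same in all libraries of a pool cancels in this difference.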

How the results depend on the processing

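The direction of no called gene named in the text turned in any of 22 alternative settings. Over 152 called genes followed through these settings, not all of which are named in the text, 50 were called in every one and 36 were lost only with a 2-fold threshold. The 1391 genes called became 330 with a 2-fold threshold and 6984 with no fold threshold. For MEKi against FGFRi, 1936 became 509 and 7951, and for the difference between times 288 became 34 and 3536. The last count was 494 with edgeR and 182 with DESeq2. Leaving out 1 library at a time gave 1141 to 1363 genes for MEKi against DMSO, 1511 to 2016 for MEKi against FGFRi and 184 to 321 for the difference between times, where the lowest count was without the 24 h DMSO replicate 5. The split also moved with scaling. Of the genes called, 43.9% were higher with TMM, 36.4% with size factors of the RLE kind and 58.9% without factors. For the difference between times, 185 were positive and 103 negative with TMM, 140 and 119 with RLE, and 333 and 75 without factors. Without both of the shallowest DMSO libraries 34.8% of 1189 genes were higher. Without a filter on low counts, 724 of the 1391 genes were called and the median change of all genes was -0.41. After subtracting the largest share that an index partner could have added, 1413 genes were called, 1311 of them the same. Of the genes named in the report as called, Ube2c, Gdf3, Nanog, Ldhb, Lss and Snrpn lost the call there, and Etv1, Gata2 and Bcl2l11 gained one. It also moved Utf1 to -1.96, Ret to -2.39 and Pdk1 to -1.83 on the log2 scale. These settings for left-out pairs of libraries and index partners were chosen after seeing the data.

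Replicate numbers are shared between groups, but same-numbered DMSO and MEKi libraries did not deviate together (correlations -0.03, 0.119 and 0.001). So few values cannot exclude that same-numbered libraries share an origin. With the replicate block, 1326 genes were called for MEKi against DMSO, 1157 of them among the 1391 of the main fit, and 1818 for MEKi against FGFRi.

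With 4 libraries a group and totals from 1462982, genes at a few CPM carry few counts, and a 2-fold change was seldom called in simulated data. Genes that miss the threshold, low or abundant, are not shown to be unchanged, as the test was against a 1.5-fold change. Dnmt1, Sycp3, Piwil2, Tex15 and Map2k2, for example, were called with no fold threshold.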

Other observations

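Of 25 listed genes of retinoic acid synthesis, breakdown and response, 17 passed the filter on low counts. Among those below it, Stra6, the retinol transporter gene, had 0, 0, 0 and 1 counts in DMSO replicates 2, 4, 5 and 6 and 4, 37, 17 and 4 counts in MEKi replicates 2, 3, 4 and 5. Cyp26a1, which encodes a retinoic acid degrading enzyme, had 0, 1, 0 and 0 counts in DMSO and 5, 16, 21 and 3 with MEKi. Every MEKi library was above every DMSO library for these genes, though the MEKi libraries were also deeper. Rarb, a retinoic acid receptor gene and target, had 1, 1, 0 and 1 counts and 0, 12, 11 and 0 counts, so its groups overlapped. Neurog3, which marks differentiating spermatogonia later in life, had 2, 2, 2 and 3 counts in DMSO and 8, 16, 17 and 5 with MEKi. Padi6, an oocyte gene, went the other way, with 13, 6, 1 and 2 counts in DMSO and 0 in all 4 MEKi libraries. These genes were picked after their values were seen and were not tested.

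Some gene families, picked after seeing values, are described by their counts, beside 4.01% called higher and 5.11% lower over all genes. Collagen and laminin genes were called lower in 8 of 43 and higher in none, with a median of -0.61. Of 681 long noncoding RNAs tested, 47 fell and 10 rose, and the 8.37% called is near the 9.12% over all genes. Of 635 X-linked genes tested 38 rose and 18 fell (8.82% called), and X-linked genes took 2.94 to 3.02% of counts in DMSO and 3.16 to 3.33% with MEKi, so the groups did not overlap. Cytosolic ribosomal protein genes were called higher in 1 of 93, with a median of -0.27, and 8 of 86 oxidative phosphorylation genes were called higher and 1 lower, where 10.5% called is also near the share over all genes.

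Among all 72 h libraries, the first principal component of the 2000 most variable genes held 80.9% of the variance. XY DMSO libraries scored -44.3 to -38.5 on it, MEKi libraries -5.76 to 4.24 and XX DMSO libraries 84.5 to 89.6. The second held 7.75%, with MEKi at 22.1 to 37.1 and the other libraries at -14.1 to -2.18.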
